A study of Mus musculus with 3 samples.

Results

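Genes for heat shock proteins, their DnaJ co-chaperones, the heat shock transcription factors and the BAG exchange factors were followed in renal corpuscles of adult mice, where blood is filtered into the nephron. Members were all genes whose annotated symbol begins with Hspa, Hspb, Hspd, Hspe, Hsph, Hsp90, Dnaja, Dnajb or Dnajc and a number, or with Hsf and a number, or is Bag1 to Bag6. Hspg2, the proteoglycan perlecan, was left out. The prefix also takes in Hspbp1 and Hspbap1, whose products bind heat shock proteins, and Hsf2bp, whose product binds a heat shock factor. This gave 83 of the 19938 genes that the array annotation names through a probe set of their own. Where a gene had more than 1 probe set, that of highest mean log2 signal was used. Hsf1, Hsp90ab1 and Hspa1b have no probe set that names them alone and were not analysed here. Of these only Hspa1b was listed on a probe set with another symbol.

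The 3 samples were wild-type CD-1 males of 7 to 9 weeks, each a pool of about 2 kidneys, and form 1 group with no other genotype, treatment or age beside it. Kidneys were minced, kept in 0.5% collagenase A at 37 °C for 15 minutes and passed through filters of 100, 70 and 40 µm, with no sorting of cells. RNA was amplified in 1 round and hybridised to an Affymetrix mouse gene array, and values are log2 signals. Whether the pools were prepared on separate days is not stated, and part of the spread between them may be technical.

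Heat shock proteins are chaperones that keep other proteins from misfolding. HSP70 binds exposed stretches of a client and releases them in a cycle driven by ATP. J-domain proteins, named Dnaja, Dnajb and Dnajc, bring clients and start ATP hydrolysis, and BAG and HSP110 proteins help nucleotide exchange. HSP90 acts later on kinases and receptors, HSP60 with HSP10 folds proteins in mitochondria, and small heat shock proteins hold unfolded clients. Heat shock factor 1 drives many of these genes after heat or other stress. Podocytes, the epithelial cells that wrap the capillaries, are long-lived and little renewed, and HSPB1 has been studied in them for its link to actin.

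The labelled tissue was checked against markers of its cells. All 4 podocyte markers analysed, all 5 endothelial and all 4 mesangial ones were detected, among them Podxl at 12.33, Emcn at 12.86 and Ptn at 12.63 log2. Markers of other cells were present as well, with 4 of 5 proximal tubule, 4 of 5 more distal tubule and 3 of 5 immune genes detected, but only 1 of 5 germ cell genes. Kap was at 10.61 log2 and the other proximal tubule markers at 7.93 or lower. The distal marker Umod had 8.77, 9.18 and 9.78 on replicates 1, 2 and 3. Which cell type gave a member's signal cannot be told from these samples, and fewer cells of a type cannot be told apart from less RNA per cell.

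Most members were above background. All 8 members grouped under the endoplasmic reticulum (ER) lumen and all 8 under mitochondria were, in groups set after the values were seen. These full counts depend on which members were placed in the groups. Dnajc28, which was not detected, was left out of the mitochondrial one. Background was the 95th percentile of olfactory and vomeronasal receptor probe sets on each array, at 6.90, 6.96 and 6.92 log2 on replicates 1, 2 and 3. A gene counted as detected when its mean signal exceeded this level in a one-sided limma test with an adjusted p under 0.05. Of the 83 members 65 were detected, or 78.3%, where 58.9% of all genes were. A linear signal over 500 on all arrays was reached by 31 members, against 17.2% of all genes, and over 1000 by 18 members, against 7.59%. The median member lay 1.55 log2 above background and the median gene 0.37. These shares describe the families, and their difference was not tested. Signals are not ranked between genes, because each probe set has its own affinity.

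**Figure D1:**
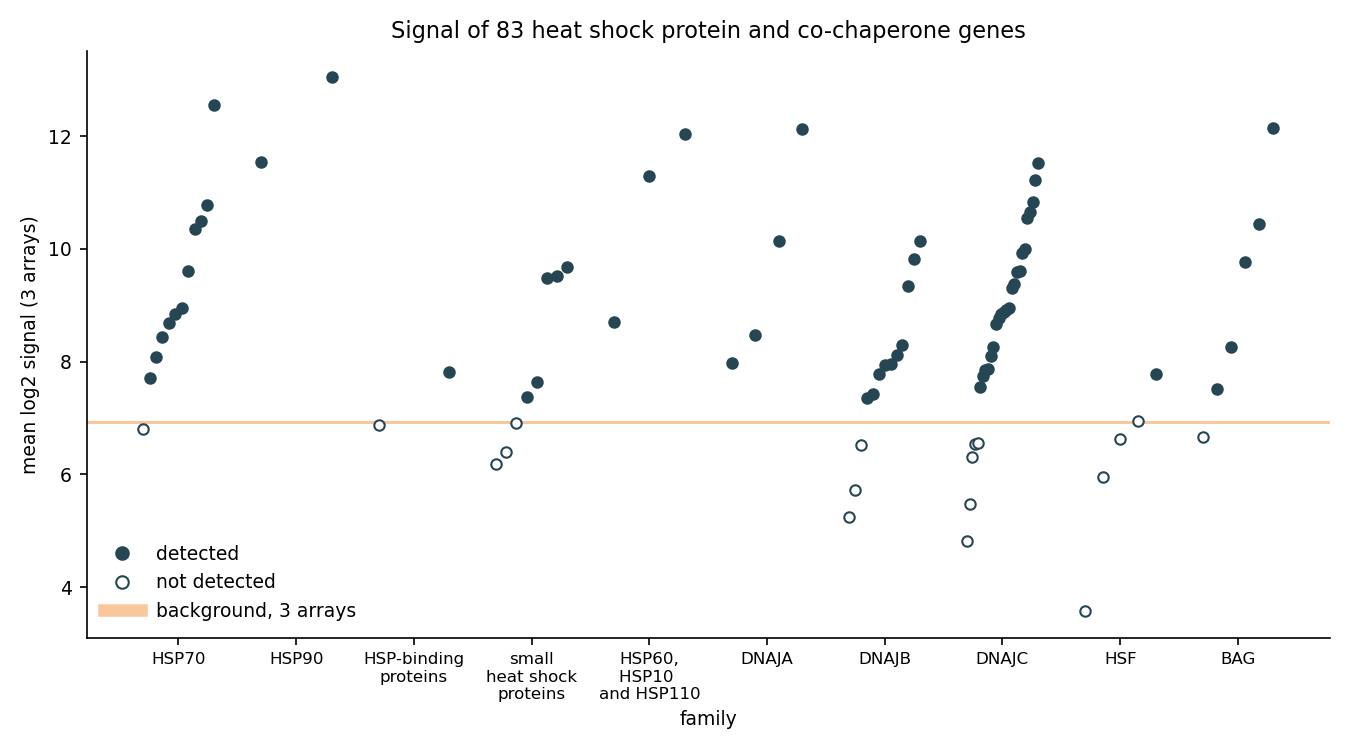
Mean log2 signal over 3 arrays (vertical axis) of each of the 83 genes, by family (horizontal axis, with points spread sideways in order of signal within a family). Genes that were detected are filled and the others open, and orange marks background, from 6.90 to 6.96. Every HSP90 and DNAJA gene and every gene for HSP60, HSP10 and HSP110 is filled, and 4 of the 5 HSF points are open.

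Of 12 HSP70 genes 11 were detected. Hspa8, the constitutive HSP70 of the cytosol, had 12.61, 12.51 and 12.52 log2 on replicates 1, 2 and 3. Hspa9, the mitochondrial HSP70 that pulls proteins in through the inner membrane, held 10.50 on every array. Hspa4, an HSP110 relative that acts as an exchange factor, had 10.47, 10.29 and 10.29. Each of these lay more than 3 log2 above background, and replicate 1 was the highest or tied highest array for all 3.

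Other HSP70 genes were closer to background. Hspa12a, of a distant branch of the family, was at 9.62 ± 0.001 log2 (SD, n = 3) and its relative Hspa12b, described in endothelial cells, at 7.70 ± 0.04. Hspa13 and Hspa14, atypical family members of microsomes and ribosomes, were at 8.95 ± 0.08 and 8.85 ± 0.05. Hspa2, best known from meiotic germ cells, was at 8.08 on every array and was detected. Hspa1l, also a gene of germ cells, had 6.91, 6.56 and 6.95 and was not detected. Replicate 2 was the low array for Hspa1l, and the other arrays lay at background.

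Hspa1a, which encodes the inducible HSP70 of the heat shock response, differed most between arrays among detected members. It had 8.24, 8.86 and 8.19 log2 on replicates 1, 2 and 3, a mean of 8.43 ± 0.37 (SD, n = 3) that is 1.51 above background. Replicate 2 stood alone there, and replicates 1 and 3 were close. A further probe set that lists Hspa1a together with Hspa1b had 8.07, 8.32 and 8.07, again highest on replicate 2. Hspa1a and Hspa1l are neighbours on the chromosome, and the replicate that was highest for Hspa1a was lowest for Hspa1l. Hspa1l lay near background and was not detected, so its order over the arrays is not interpreted.

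Several other genes of the heat shock response had another order. Hsph1, the inducible HSP110, had 8.86, 8.48 and 8.78 log2 on replicates 1, 2 and 3, and Hspa4l, a close relative, had 8.89, 8.50 and 8.66. Hsp90aa1, the inducible cytosolic HSP90, had 11.67, 11.46 and 11.51. Dnaja1, a main J-domain partner of cytosolic HSP70, had 12.26, 12.01 and 12.10. Of these 4 genes Hspa4l and Dnaja1 are not in the heat-inducible set named below. For all 4 replicate 1 was the highest array and replicate 2 the lowest. Among all detected genes with a range over 0.1 log2 and a single highest array, replicate 1 was highest for 52.9%. A probe set that lists Mir207 together with Dnaja1 ran otherwise, with 10.44, 10.60 and 10.66. Dnajb1, the J-domain partner that is induced with HSP70, had 8.25, 8.25 and 8.41 and was highest on replicate 3. Hspe1, with 12.01, 12.05 and 12.05, was lowest on replicate 1 and highest on replicate 3, within a range of 0.04 log2. Hspb1, Bag3 and Hspd1 had ranges of 0.01 log2 or less, and within this Hspb1 was highest on replicate 2, a step too small to read as an order. Bag3 and Hspd1 held 1 value on all arrays, as did 54.2% of all genes, so these ties do not show stable expression.

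A set of 8 genes known to be heat-inducible was fixed after the values were seen. All 8 (Hspa1a, Dnajb1, Hsph1, Hspb1, Hsp90aa1, Bag3, Hspd1 and Hspe1) were detected, with means from 8.26 to 12.04 log2. Of these, 4 exceeded a linear signal of 500 on all arrays and 3 exceeded 1000, namely Hsp90aa1, Hspd1 and Hspe1. Immediate early genes, which respond to handling within minutes, were detected in 12 of 12 cases, with means from 7.05 to 9.66 log2. Of all genes 58.9% were detected. Atf3, Fos, Junb and Ier2 lay only 0.13, 0.25, 0.28 and 0.29 log2 above background, and Egr1 0.53. The means of these genes were below the 99th percentile of receptors, at 7.56. Jun had 9.44, 9.73 and 9.82 on replicates 1, 2 and 3 and Fos 7.04, 7.25 and 7.25. Replicate 1 was the lowest array for these and for 4 others of the list. Zfp36 had 8.49, 8.63 and 8.48 and was high on replicate 2 only, as Hspa1a was, and Fosb, Klf6 and Dusp1 were also highest there. The summed signal of the list was 12.14, 12.26 and 12.25 log2 on replicates 1, 2 and 3. With 1 group, the part of warming and digestion in these levels was not tested.

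**Figure D2:**
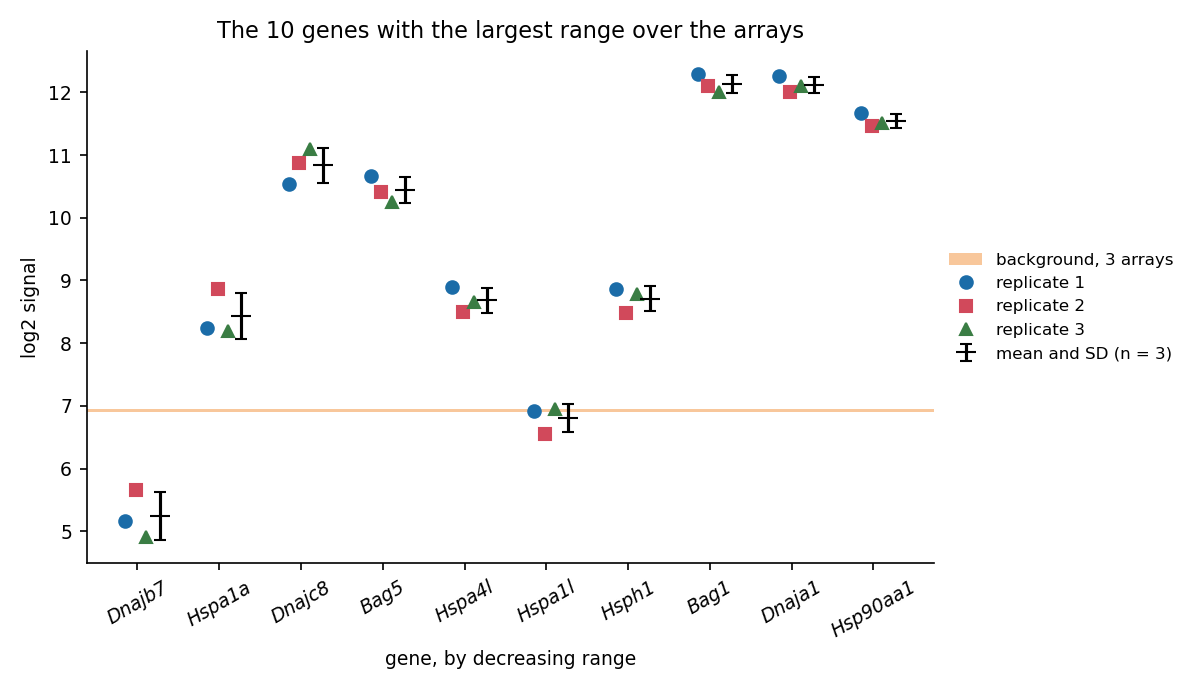
The 10 genes with the largest range (horizontal axis) and their log2 signal on each of the 3 arrays (vertical axis), with the mean and SD of n = 3 in black and background in orange. Replicate 2 is the top symbol for Hspa1a and Dnajb7 and the bottom symbol for Hspa4l, Hspa1l, Hsph1, Dnaja1 and Hsp90aa1, and Dnajc8 and Bag5 run in opposite orders.

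Genes for folding in the ER were also grouped after the values were seen. All 8 lumenal members (Hspa5, Hsp90b1, Hspa13, Dnajb9, Dnajb11, Dnajc1, Dnajc3 and Dnajc10) were detected, with means from 8.91 to 13.04 log2, and 5 exceeded a linear signal of 1000 on all arrays. Hsp90b1, the ER form of HSP90, which folds integrins and Toll-like receptors, had 13.06, 13.07 and 12.99 on replicates 1, 2 and 3, a linear signal of 8430. Hspa5, the ER form of HSP70 known as BiP, had 10.87, 10.72 and 10.72. Both were close on all arrays, within 0.08 and 0.15 log2.

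The ER J-domain partners of BiP followed. Dnajc3, which also restrains the kinase PERK, had 11.58, 11.50 and 11.50 log2 on replicates 1, 2 and 3. Dnajc10, a reductase of wrong disulfide bonds, had 10.61, 10.53 and 10.51. Dnajb11, a subunit of the complex that binds nascent chains and a gene mutated in human polycystic kidney disease, had 10.17, 10.14 and 10.10. Replicate 1 was the highest array for all 3, with ranges of 0.10 log2 or less. Dnajb9, which is induced by the unfolded protein response, had 9.42, 9.28 and 9.29, and Dnajc1 was at 8.91 ± 0.08 (SD, n = 3).

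The promoters of 3 of these genes carry the ER stress element, to which ATF6 and NF-Y bind. RefSeq promoter windows of build GRCm38.p6, from 250 bases before to 50 after a start, were matched for 68 of the 83 members. A match seen from several annotated starts is given from the nearest. The other members, among them Hsp90aa1, Hspa8 and Hspa9, had no window and were not searched. The element was searched on both strands as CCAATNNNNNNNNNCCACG, whose left part is the CCAAT box. It was found in 3 of the 68 members and in 0.137% of 27025 genes. The sequences are shown because every member that holds the element is a gene of the ER, with the element in capitals (reverse complement in the second Hsp90b1 stretch), on the strand of the gene.
Hspa5, chr2:34772005-34772063, plus strand: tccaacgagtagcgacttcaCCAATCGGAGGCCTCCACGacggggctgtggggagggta
Hsp90b1, chr10:86705618-86705676, minus strand: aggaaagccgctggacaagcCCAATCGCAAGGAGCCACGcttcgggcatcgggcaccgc
Hsp90b1, chr10:86705513-86705571, minus strand: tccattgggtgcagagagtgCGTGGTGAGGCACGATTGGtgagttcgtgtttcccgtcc
Dnajc3, chr14:118937807-118937865, plus strand: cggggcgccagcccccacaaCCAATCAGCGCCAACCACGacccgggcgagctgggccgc

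The element lies 65 bases before the start in Hspa5, 212 and 107 bases before it in Hsp90b1 and 105 bases before it in Dnajc3, counted to its first base. A shorter form, ATTGGNCCACG, was found in 1 member, Dnajb11, where it begins 7 bases after the start, and in 0.0444% of genes. The CCAAT box alone was in 39.7% of members and 41.1% of genes. A match is a stretch of letters and was not tested as a binding site.

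Genes grouped under mitochondrial folding, again after the values were seen, were likewise all detected, 8 of 8. Dnajc28 (6.55) and Dnajc4 (8.67) were not in the group, and Dnajc28 was not detected. Hspd1 and Hspe1 encode HSP60 and its lid HSP10. Hspe1 had 12.01, 12.05 and 12.05 log2 on replicates 1, 2 and 3, and Hspd1 held 11.29 on each. The pair lies head to head on chromosome 1 and shares a stretch between the Hspe1 start and an inner annotated start of Hspd1. The outermost Hspd1 annotation reaches base 55088243, beyond the Hspe1 start at 55088148. Counted from there, the stretch lies inside Hspd1. The heat shock element, searched as GAANNTTCNNGAA on both strands, was found in 4 of 68 members (Hspd1, Hspe1, Dnajb6 and Hsph1) and in 0.662% of genes. In the shared stretch it occurs in 2 overlapping copies on opposite strands. Of these, 1 is shown from either gene, in capitals, because the same bases stand before both of these starts. In Dnajb6, whose product keeps polyglutamine proteins from aggregating, it begins 46 bases before the start.
Hspe1, chr1:55088051-55088079, plus strand: acggtccgTTCTAGAACCTTCcggaaggc
Hspd1, chr1:55088051-55088079, minus strand: gccttccgGAAGGTTCTAGAAcggaccgt
Dnajb6, chr5:29735844-29735872, plus strand: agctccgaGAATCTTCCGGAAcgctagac

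The 4 members with the heat shock element had means from 7.94 to 12.04 log2, and all 4 were detected. Of the 64 members without it 49 were detected, with means from 3.58 to 13.04. The element is in neither the Hspa1a nor the Dnajb1 window, which says only that these letters, with no mismatch, are not there. Hsp90aa1 had no window to search. In Hsph1 the match begins 15 bases after an inner annotated start, as the gene, on the minus strand of chromosome 5, is annotated up to base 149636498.

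**Figure D3:**
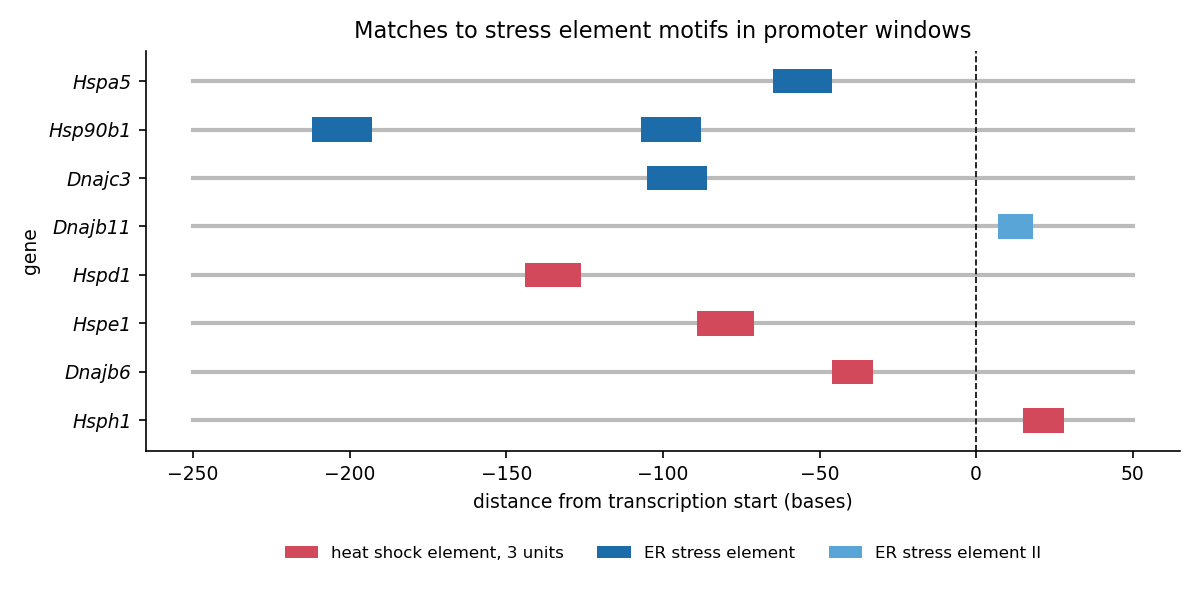
Position of each motif match (bars, horizontal axis in bases from the nearest annotated transcription start, at 0) in the promoter windows of 8 genes (rows). Grey lines span the window from 250 bases before to 50 after the start. For Hspd1 and Hsph1 this is an inner start. The ER stress element lies before the start in Hspa5, Hsp90b1 and Dnajc3, and the heat shock element before it in Hspd1, Hspe1 and Dnajb6.

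Of the other mitochondrial members, Dnaja3, a partner of Hspa9 in the matrix, had 8.38, 8.52 and 8.52 log2 on replicates 1, 2 and 3. Dnajc19 and Dnajc15, which belong to or regulate the import motor at the inner membrane, were at 9.30 ± 0.01 and 8.85 ± 0.07 (SD, n = 3). Dnajc11, of the cristae complex, and Dnajc30 were at 7.85 ± 0.05 and 8.27. Replicate 1 was the lowest array for Dnaja3 and the others named here had smaller ranges.

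Among the 4 DNAJA genes, the class closest to bacterial DnaJ, all were detected. Besides Dnaja1 and Dnaja3, Dnaja2, which has a zinc finger and serves cytosolic HSP70, held 10.14 log2 on every array. Dnaja4 held 7.98, which is 1.06 above background. Only the probe set of Dnaja1 varied by more than 0.2 log2 over the arrays.

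Of 13 DNAJB genes 10 were detected, and 1, Dnajb11, exceeded a linear signal of 1000 on all arrays. Dnajb4, a cytosolic relative of Dnajb1, held 9.82 log2 on every array. Dnajb14, an ER membrane protein, held 8.12. Dnajb5, Dnajb6 and Dnajb12 were detected between 7.78 and 7.95. Dnajb2, known from neurons, had 7.40, 7.48 and 7.40 on replicates 1, 2 and 3, and Dnajb8 held 7.36. They were the detected DNAJB genes closest to background, at 0.50 and 0.43 above it. Dnajb13 of sperm tails, Dnajb3 and Dnajb7 were not detected, at 6.52, 5.72 and 5.25. Dnajb7 had 5.16, 5.67 and 4.91 on replicates 1, 2 and 3, the widest range of any member, and all its values lay below background.

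The 28 DNAJC genes are the most varied J-domain proteins, and 23 were detected, with detected means from 7.55 to 11.53 log2. Dnajc7, which links HSP70 and HSP90, had 11.27, 11.21 and 11.19 on replicates 1, 2 and 3. Dnajc13, an endosomal protein that clears clathrin, had 10.67, 10.64 and 10.67. These values were close on all arrays, but the probe set used for Dnajc13 is 1 of 15, and another had 9.38, 9.01 and 8.81. With the mean of its probe sets Dnajc13 lay 2.67 above background in place of 3.73, and 17 members in place of 18 exceeded 1000. Dnajc8, a spliceosome protein, had 10.54, 10.88 and 11.10, a range of 0.55 log2 with replicate 1 lowest and replicate 3 highest. Dnajc21 and Dnajc2, of ribosome assembly and the ribosome exit, were at 10.00 ± 0.08 and 8.88. The other 10 detected genes of the class had means from 7.55 to 9.93.

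Members tied to specialised cells were split. Dnajc5, the cysteine string protein of secretory vesicles, was detected at 9.60 ± 0.002 log2 (SD, n = 3). Its germ cell relatives Dnajc5b and Dnajc5g were not, at 5.47 and 4.81 ± 0.09. Dnajc6, the neuronal auxilin that uncoats clathrin vesicles, was not detected at 6.53, whereas its widely expressed relative Gak, no member by its name, was at 9.44 ± 0.004. Dnajc22 and Dnajc28 were also undetected, at 6.32 and 6.55. Of 10 members grouped, after the values were seen, as known from testis, 2 were detected, Hspa2 and Dnajb8. The call of Dnajb8 was lost with the 99th percentile of receptors as the background level.

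Of 8 genes named as small heat shock proteins 5 were detected. Hspb8, which works with Bag3 in the removal of damaged cytoskeletal proteins, had 9.67, 9.67 and 9.71 log2 on replicates 1, 2 and 3. Hspb1, which binds actin, had 9.49, 9.50 and 9.49. Hspb11, a part of the ciliary transport machinery despite its name, had 9.52, 9.51 and 9.53. These genes varied by less than 0.05 log2, and each exceeded a linear signal of 500 on all arrays.

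The 4 members grouped, after the values were seen, as known from heart and skeletal muscle lay near background or under it. Hspb1, Hspb8 and Bag3, which lay higher, were not placed in this group. Hspb2 held 7.64 log2 on every array and Hspb6 had 7.34, 7.35 and 7.42, both detected. At the 99th percentile of receptors the call of Hspb6 was lost and Hspb2 lay 0.079 above background. Hspb3 at 6.39 and Hspb7 at 6.19 ± 0.02 (SD, n = 3) were not. Hspb6 and Hspb7 are also found in smooth muscle, whose markers Acta2 and Myh11 had 7.996, 8.999 and 8.789 and 7.99, 8.59 and 8.37 on replicates 1, 2 and 3. Of the other smooth muscle markers Tagln held 8.18 and Cnn1, at 6.44, was not detected. Hspb9, known from testis, held 6.92, which is 0.01 under the mean background. Cryab, a small heat shock protein outside the rule by its name, had 10.88, 10.77 and 10.99 and was detected.

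Of 6 BAG genes 5 were detected. Bag1, the founding exchange factor, had 12.294, 12.109 and 12.004 log2 on replicates 1, 2 and 3, and Bag5, which has several BAG domains, had 10.67, 10.41 and 10.25. Both were highest on replicate 1 and lowest on replicate 3, by 0.29 and 0.42. Bag6, which escorts tail-anchored proteins, had 9.72, 9.79 and 9.79. Bag3, the stress-induced partner of Hspb8, held 8.26, and Bag4, which silences death domains, held 7.51. Bag2, an inhibitor of the ubiquitin ligase CHIP, had 6.67, 6.62 and 6.67 and was not detected.

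Of the 4 heat shock factors analysed 1 was detected, and the factor-binding Hsf2bp, counted with them as a family of 5, was not. Hsf2, a factor of development that also binds heat shock elements, had 7.80, 7.77 and 7.77 log2 on replicates 1, 2 and 3, which is 0.85 above background. Hsf4, known from the lens, had 6.93, 7.00 and 6.93, 0.03 above background and short of the limma threshold (adjusted p = 0.279). Hsf2bp, with 6.62, 6.63 and 6.63, Hsf5 at 5.96 and Hsf3 at 3.58 were not detected. Hsf2bp and Hsf5 act in meiosis. Of the HSP-binding proteins, Hspbp1, an exchange factor, was detected with 7.75, 7.85 and 7.85, and Hspbap1, at 6.88, was not.

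Partners of the chaperones outside the naming rule were then examined, in lists chosen with earlier results of these data known. Of all genes 58.9% were detected, which is the share to set beside the counts. Of 13 HSP90 co-chaperones and mitochondrial HSP90 13 were detected, with Ptges3, which encodes p23, at 12.04 ± 0.04 log2 (SD, n = 3), Ahsa1, an activator of HSP90, at 10.43 ± 0.03 and Ppid at 10.20 ± 0.04. Of HSP70 co-chaperones 9 of 9 analysed were detected, among them St13, Sec63 and Stub1, which encodes CHIP, at 9.72. Stip1, the adaptor that joins HSP70 to HSP90, had 9.35, 9.08 and 9.25 on replicates 1, 2 and 3, lowest on replicate 2 like Hsp90aa1. Fkbp5, of the HSP90 list, held 7.20, only 0.28 above background and below the 99th percentile of receptors, at 7.56.

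Subunits of the cytosolic chaperonin TRiC and of prefoldin were detected in 14 of 15 cases, among them Pfdn5 at 11.63 ± 0.01 log2 (SD, n = 3), Pfdn2 and Cct2. The exception was Cct6b, the testis form of a subunit, at 5.57, beside Cct6a, the common form, at 9.14. ER folding and unfolded protein response genes were detected in 16 of 16 cases, with Canx at 12.12, Pdia3 at 11.68 ± 0.12 and Calr at 10.57 ± 0.07. Among their regulators Atf6 held 9.97, Atf4 was at 9.28 ± 0.01 and Ddit3, the factor CHOP, at 8.94 ± 0.01. Ern1, the sensor IRE1, held 7.32, 0.40 above background. All 4 mitochondrial protease and unfoldase genes were detected, among them Clpx at 9.15 ± 0.10. The counts of these lists stand beside the 58.9% of all genes that were detected.

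Of the 83 members 32 (38.6%) held 1 value on all 3 arrays, as did 54.2% of all genes, and an SD of 0 is therefore not an error of 0. A further 26 held 2 values and 25 held 3. No member was more than 2-fold apart between any pair of arrays, as 0.301% of all genes were, and 3 (3.61%) had a range over 0.5 log2, namely Dnajb7, Hspa1a and Dnajc8, as did 1.7% of all genes. The median SD of the members with 3 values was 0.08, and that of such genes overall 0.09.

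Replicate 1 was often the highest array. Of the 21 detected members with a range over 0.1 log2, 17 had a single highest array, and this was replicate 1 for 14, replicate 2 for 1 and replicate 3 for 2. Of the 2898 detected genes with such a range and a single highest array, replicate 1 was highest for 52.9%. The member highest on replicate 2 was Hspa1a, and those highest on replicate 3 were Dnajc8 and Dnajb1. The array medians were 7.11, 7.11 and 7.09. Summed signals of the immune markers were 10.60, 10.85 and 10.22 log2 on replicates 1, 2 and 3, those of smooth muscle markers 9.79, 10.32 and 10.17 and those of podocyte markers 13.18, 13.17 and 13.17. Endothelial markers summed to 14.05, 13.96 and 13.99, highest on replicate 1 and lowest on replicate 2. Among them only Tek, with 11.001, 10.49 and 10.72, had the order of Hsph1, Hspa4l, Hsp90aa1 and Dnaja1. Cdh5 and Kdr were lowest on replicate 3, and Pecam1 and Emcn held the same value on replicates 1 and 3. Of the immune markers Ptprc, Lyz2 and Tyrobp were detected and Adgre1 and Cd79a were not, and of the smooth muscle markers Acta2, Myh11 and Tagln were detected and Cnn1 was not. The part of such cells in the levels of the members was not tested.

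Several members have near-identical copies in the genome or more than 1 probe set. The reference lists 17 pseudogenes whose symbols follow the rule, among them copies of Hspd1, Hspe1, Dnaja1 and Hspa9, so signals of these families are uncertain. Of 8 members with several probe sets of their own, Dnajc13 had 15, with means from 7.57 to 10.66 log2. Dnaja1 had 2, at 10.16 and 12.12, and Hspd1 had 2, at 9.79 and 11.29. Hspa8 had 3, with means from 10.95 to 12.54, and Hsp90aa1 had 3, from 10.74 to 11.55. All these probe sets lay above background. The 3 of Hsp90aa1 were each highest on replicate 1 and lowest on replicate 2, and the 3 of Hspa8 were each lowest on replicate 2.

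**Figure D4:**
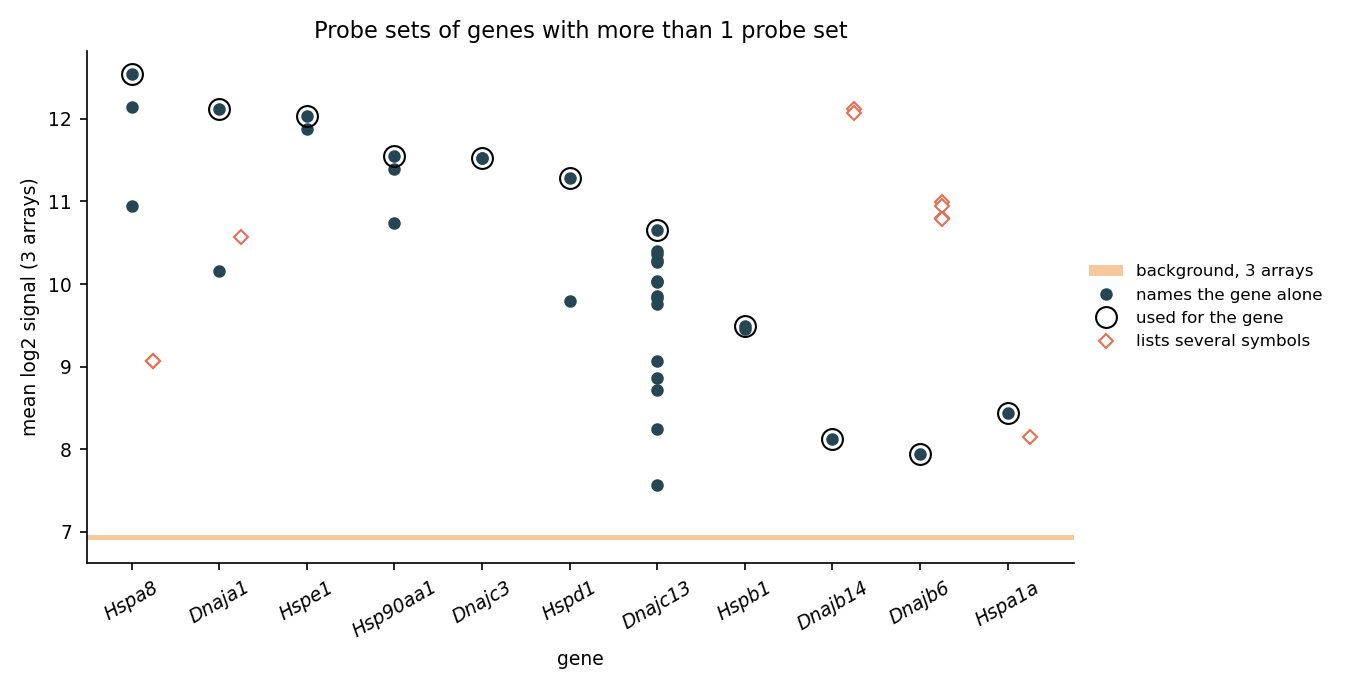
Mean log2 signal over 3 arrays (vertical axis) of every probe set of 11 genes (horizontal axis), where dark points name the gene alone, ringed points were used for the gene, open diamonds list several symbols and orange is background. For Dnajb14 and Dnajb6 the diamonds lie about 4 and 3 log2 above the ringed point, and for Hspa8 they lie below it.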

How the data were processed

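RNA of 3 samples was measured on 1 array each. The authors deposited log2 signals for 35557 probe sets, made with Affymetrix Expression Console (version not stated) by the submitters' processing notes. How probes were summarised is not stated in the sources used here. Values ran from 2.36 to 14.40 and were not normalized again. The table held 0 columns of other samples. The array annotation gives 1 symbol to 21789 probe sets, several to 1621 and none to 12147, and no gene was named from a probe set with several. All 83 member symbols match the current reference.

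Each array's background, the 95th percentile of 1210 receptor probe sets, was subtracted. The difference was tested above 0 with limma 3.58.1 in R 4.3.3 (lmFit with an intercept, eBayes with a trend, one-sided, Benjamini-Hochberg over 19938 genes). The fit was also run on simulated data in which genes without signal were set clearly below background. False calls close to background could not be judged from that run. Because of ties, single p-values may be too small. Precision is limited by the number of arrays. There is no count or depth for such data. Alternatives were other backgrounds, a fixed signal of 150, no trend, quantile normalization, the mean of probe sets, shared probe sets and leaving out each replicate.

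Values on each array are given for up to 5 detected members of highest mean per family, the 10 of largest range and the 5 nearest background on either side. Other members were named with their values seen. Up to 3 detected genes of highest mean and all undetected ones were named from each partner list. The groups by role (heat-inducible, ER, mitochondrial, testis, muscle) were set after the values were seen. Members and lists were chosen with earlier results of these data known. Protein sequences were not used here. Motif matches came from RefSeq promoter windows.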

Additional observations from a re-analysis of the deposited data

Results flagged for a closer look

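Outside the measurement by single-gene probe sets, 10 probe sets that list a member among several symbols gave signal above background. They were set aside because their signal cannot be given to 1 gene, and values are mean log2 above background. The 4 that list Gm4247 and Dnajb6 lay 3.87, 4.07, 4.01 and 3.86 above background, where the probe set that names Dnajb6 alone lay 1.02 above it. The 2 that list Dnajb14 and Pin4 lay 5.19 and 5.14 above it, against 1.20 for Dnajb14 alone. The probe set for Mir207 and Dnaja1 lay 3.64 above background, and that for Hspa1a and Hspa1b 1.22. The 2 that list Hspa8 with Snord14c and Snord14d, small nucleolar RNAs, each lay 2.15 above it and held the same values, 9.36, 9.51 and 8.34 log2 on replicates 1, 2 and 3. They were low on replicate 3, where the 3 probe sets of Hspa8 alone were not. Which of the listed genes gave these signals was not tested.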

How the results depend on the processing

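No paired analysis was possible because there is only 1 group. The number of members detected, 65 of 83, was 60 when background was set at the 99th percentile of receptors, 80 with their median and 66 of 84 with shared probe sets counted. It was 65 under the other alternatives run. All genes detected were 18024 with the median of receptors, which sets a lower level, in place of 11734, and 8312 with the 99th percentile. Calls of members were lost with the 99th percentile for Bag4 (-0.052 against that level), Dnajb2 (-0.14), Dnajb8 (-0.202), Hspb6 (-0.19) and Dnajc12, and Hsf4 stood at -0.61. With the median of receptors Bag2 (1.28), Hsf2bp (1.25), Hspa1l (1.43), Hspb9 (1.54) and Hspbap1 (1.502) were above background, among 15 members called there and not at the 95th percentile. Leaving out each replicate put Hspa1l between -0.192 and 0.0228 and Hspb9 between -0.0188 and 0.0097 log2 of background, highest without replicate 2, with no call. Under quantile normalization, an alternative chosen after seeing the data for the order of arrays, replicate 1 was highest for 14 of the 21 members with a range over 0.1 log2 (45.4% of such genes overall with a single highest array), and over all 65 detected members replicate 3 was highest for 60% (70.4% of detected genes with a single highest array), against 21.6% of the 37 with a single highest array as deposited. Ties of the deposited values are broken by that step.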
